A study of Homo sapiens with 6 samples.

Results

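The 9 genes described here are PRDX1, TXN, TXNRD1, SRXN1, NQO1, HMOX1, GCLC, GCLM and NFE2L2, which encode a peroxiredoxin, the thioredoxin system, further targets of the transcription factor NRF2 and NRF2 itself. They were chosen by name, with earlier results of these libraries known, as the rows whose Ensembl identifiers map to these symbols, and all 9 were found among 78648 genes. The libraries came from THP-1 cells, an established line from a human monocytic leukaemia, stably transduced with a PTX4 overexpression construct (PTX4-OE, 3 libraries) or with an empty vector (EV, 3 libraries). PTX4 encodes pentraxin 4, a member of a family of soluble recognition proteins. Each construct had 3 biological replicates numbered 1 to 3. The labels put all 6 libraries in 1 batch and do not say what libraries of the same number share. The sources used here give neither the promoter that drove PTX4 nor whether the transduced cells were a pool or a clone.

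NRF2, the product of NFE2L2, is held by KEAP1, which delivers it to the CUL3 ubiquitin ligase for degradation. When oxidants or electrophiles modify KEAP1, NRF2 accumulates, pairs with small MAF proteins and binds antioxidant response elements, sites that BACH1 can occupy as a repressor. Its targets supply glutathione and NADPH and keep the thioredoxin cycle running, in which PRDX1 removes hydrogen peroxide, TXN reduces PRDX1, TXNRD1 reduces TXN and SRXN1 repairs overoxidised peroxiredoxin. In monocytes and macrophages the pathway is known for limiting damage from the oxidants that these cells make.

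The total expected count ranged from 31078642 to 37718207 in PTX4-OE libraries and from 29670641 to 32691577 in EV libraries. PTX4 had 24633, 14398 and 15782 expected counts in PTX4-OE replicates 1, 2 and 3, against 0, 3 and 4 in EV replicates 1, 2 and 3. Of 11 monocyte markers 10 had a mean over 1 TPM (length-scaled transcript abundance), among them CD14 at 1.22 to 1.63 TPM in PTX4-OE and 0.84 to 1.83 TPM in EV, and CD4 was near 0. The summed monocyte marker level was 712 to 858 TPM in PTX4-OE and 763 to 852 TPM in EV. The summed T cell, B cell, erythroid, epithelial and fibroblast marker lists each stayed at or under 5.20 TPM, and CD3D, CD3E, CD3G, CD2, MS4A1, HBB, HBA2, EPCAM, COL1A2, COL3A1 and DCN were listed at 0 in all 6 libraries. Mitochondrially encoded genes took 2.79%, 5.39% and 4.97% of counts in PTX4-OE replicates 1, 2 and 3, against 4.75%, 5.91% and 5.51% in EV replicates 1, 2 and 3.

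PRDX1 and TXN were the most abundant of the 9 genes per length and HMOX1 the least. PRDX1 averaged 613.6 ± 272 TPM in PTX4-OE and 655.2 ± 288 TPM in EV (SD, n = 3 each), and TXN 395.5 ± 102 TPM in PTX4-OE and 378.1 ± 81.7 TPM in EV. NQO1 (mean of all 6 libraries 63.5 TPM), TXNRD1 (53.4 TPM) and NFE2L2 (43.8 TPM) lay below them. SRXN1 (19.8 TPM), GCLM (18.4 TPM), GCLC (11.0 TPM) and HMOX1 (2.55 TPM) followed. Over the 6 libraries the TPM ranges of PRDX1 and TXN overlapped, although PRDX1 was above TXN in each library. The range of TXNRD1 overlapped that of NQO1 above it and that of NFE2L2 below it, the ranges of SRXN1 and GCLM overlapped, and the ranges of all other neighbours in this order were apart. The 9 genes together held 1623, 1221 and 822.5 TPM in PTX4-OE replicates 1, 2 and 3, against 1569, 1368 and 799 TPM in EV replicates 1, 2 and 3. PRDX1 and TXN made up 76.7% to 85.0% of that sum in PTX4-OE and 77.5% to 84.7% in EV.

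All 9 genes overlapped between PTX4-OE and EV libraries, and 7 of them differed along the replicate numbers within both constructs. PRDX1, TXN, TXNRD1, SRXN1, NQO1, GCLC and GCLM were highest in replicate 1, intermediate in replicate 2 and lowest in replicate 3, in PTX4-OE and in EV alike. For these 7 genes the libraries of any 2 numbers did not overlap. How many of all tested genes have this order, or do or do not overlap in these ways, was not counted, so nothing is read from it. On a different measure, edgeR called 12.9% of all tested genes lower for number 2 against 1, 18.6% for number 3 against 2 and 28.8% for number 3 against 1. HMOX1 and NFE2L2 had the falling order in EV and not in PTX4-OE, and NFE2L2 stayed nearly level in both. The levels by library below are normalised CPM (CPM is the count as a share of the library's total, here with trimmed-mean scaling and no scaling for gene length), so they compare libraries and not genes. Since the 9 genes were chosen with both contrasts known, their differences are given as a description. Counts of those called come from fits over all genes, stand beside the share of all genes called, and support nothing. In bulk RNA, fewer cells of a kind and less RNA per cell cannot be told apart.

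**Figure D1:**
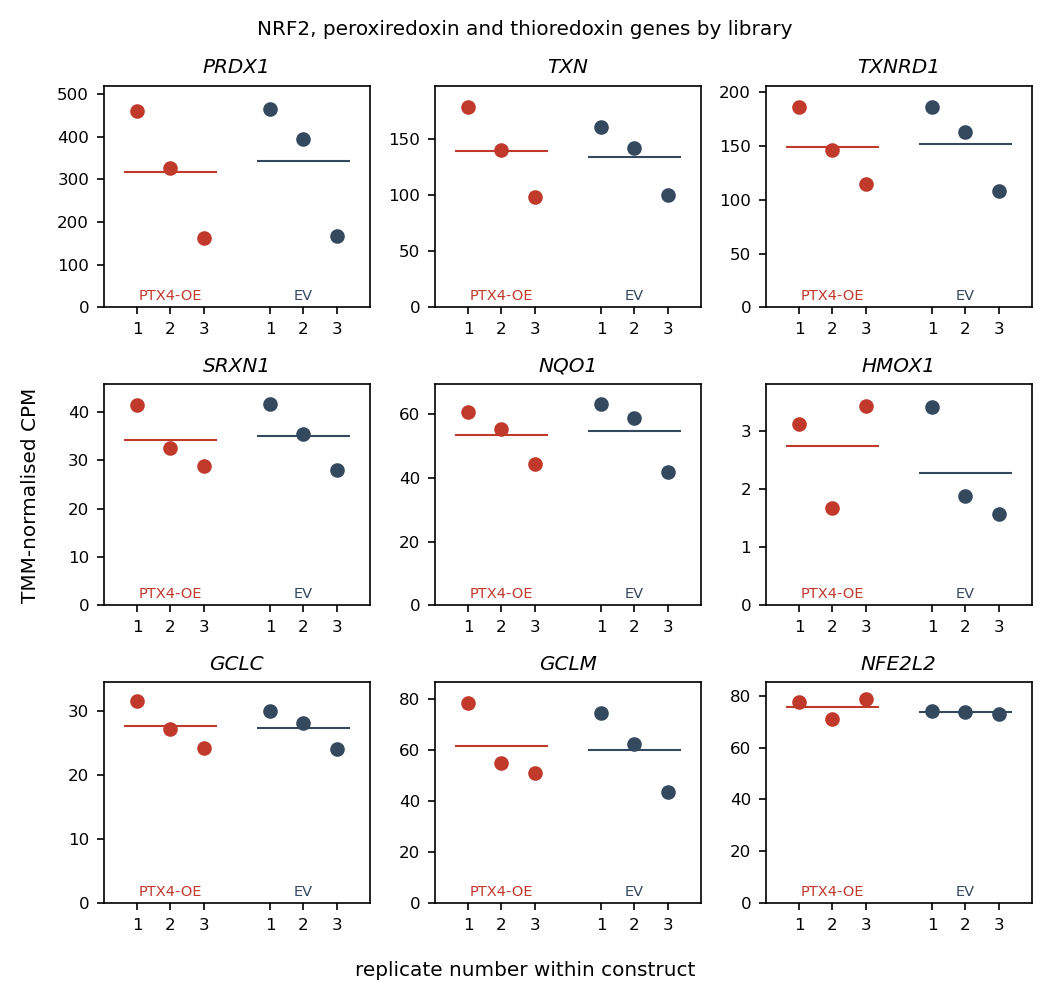
Normalised CPM (y axis, linear from 0) of each of the 9 genes in the 3 PTX4-OE libraries (red, left) and the 3 EV libraries (blue, right), with replicate number on the x axis and a line at each construct's mean. PRDX1 stands at 164 and 167 CPM in the PTX4-OE and EV libraries numbered 3 and at 459 and 465 CPM in those numbered 1, while NFE2L2 stays between 71.1 and 78.5 CPM.

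PRDX1, the cytosolic peroxiredoxin that reduces hydrogen peroxide through a reactive cysteine, varied most over the 6 libraries. The gene (ENSG00000117450.15, chromosome 1, 45510914 to 45542732, minus strand, GRCh38, protein coding) stood at 459, 326 and 164 CPM in PTX4-OE replicates 1, 2 and 3. In EV replicates 1, 2 and 3 it stood at 465, 394 and 167 CPM. Both libraries numbered 3 were thus far below the other 4, while the same-numbered libraries of PTX4-OE and EV lay closest at numbers 1 and 3. Replicate number 3 against 1, with construct in the edgeR fit, gave PRDX1 a log2 fold change of -1.48 (SE 0.071), which is 2.79-fold lower, and number 2 against 1 gave -0.36 (SE 0.070). The log2 difference of number 3 minus 1 was -1.49 within PTX4-OE and -1.48 within EV, so it was as large in EV as in PTX4-OE. Among the 17625 tested genes PRDX1 held rank 95 from the lowest log2 fold change of number 3 against 1. PRDX1 shares 501 exonic bases, 29.8% of its exons, with MMACHC on the opposite strand, and its counts were fractional in all 6 libraries. MMACHC had 637 to 914 expected counts against 5661 to 16496 for PRDX1, and its log2 fold change of number 3 against 1 was -0.47.

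TXN, the small disulfide reductase that passes electrons to PRDX1, followed the same order with a smaller range. The gene (ENSG00000136810.13, chromosome 9, 110243810 to 110256507, minus strand) stood at 178, 140 and 98.1 CPM in PTX4-OE replicates 1, 2 and 3, against 161, 141 and 99.5 CPM in EV replicates 1, 2 and 3. Its log2 fold change of number 3 against 1 was -0.78 (SE 0.062). The 7 named TXN pseudogenes together had at most 1 expected count in any library. The TPM ratio of PRDX1 to TXN within a library was 1.76, 1.60 and 1.14 in PTX4-OE replicates 1, 2 and 3, against 1.97, 1.88 and 1.15 in EV replicates 1, 2 and 3. That ratio was therefore lowest in both libraries numbered 3.

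TXNRD1, the NADPH-dependent selenoenzyme that reduces TXN, had the same order and nearly the same range as its substrate. The gene (ENSG00000198431.18, chromosome 12, 104215779 to 104350307, plus strand) stood at 187, 147 and 114 CPM in PTX4-OE replicates 1, 2 and 3, against 186, 163 and 108 CPM in EV replicates 1, 2 and 3. Its log2 fold change of number 3 against 1 was -0.74 (SE 0.065). The TPM ratio of TXN to TXNRD1 ran only from 6.86 to 7.63 in PTX4-OE and from 6.95 to 7.25 in EV. SRXN1, sulfiredoxin, which repairs overoxidised peroxiredoxin (ENSG00000271303.2, chromosome 20, 646615 to 653200, minus strand), stood at 41.4, 32.5 and 28.8 CPM in PTX4-OE replicates 1, 2 and 3. In EV replicates 1, 2 and 3 SRXN1 stood at 41.7, 35.5 and 28.0 CPM, and its log2 fold change of number 3 against 1 was -0.55 (SE 0.072). A further annotated protein-coding gene, ENSG00000270299, covers 90.7% of SRXN1's exonic bases and had 0 counts in every library.

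GCLC and GCLM encode the catalytic and modifier subunits of glutamate-cysteine ligase, which catalyses the rate-limiting step of glutathione synthesis. GCLM (ENSG00000023909.10, chromosome 1, 93885199 to 93909456, minus strand) stood at 78.5, 55.1 and 51.2 CPM in PTX4-OE replicates 1, 2 and 3, against 74.4, 62.3 and 43.5 CPM in EV replicates 1, 2 and 3. GCLC (ENSG00000001084.13, chromosome 6, 53497341 to 53616970, minus strand) stood at 31.7, 27.2 and 24.3 CPM in PTX4-OE replicates 1, 2 and 3, against 30.1, 28.2 and 24.1 CPM in EV replicates 1, 2 and 3. The modifier subunit thus varied more than the catalytic one: the log2 fold change of number 3 against 1 was -0.69 (SE 0.080) for GCLM and -0.35 (SE 0.074) for GCLC. On log2(TPM + 1) the GCLC value was -0.17 and it lost its call. The TPM ratio of GCLM to GCLC was 1.94, 1.48 and 1.65 in PTX4-OE replicates 1, 2 and 3, against 1.96, 1.72 and 1.27 in EV replicates 1, 2 and 3.

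The DNA just upstream of the annotated starts is shown for TXNRD1, GCLM and TXN. Of the 7 genes found in the RefSeq promoter table, TXNRD1 and GCLM were the 2 with a match to the antioxidant response element core TGACNNNGC. TXN is shown as a gene without a match. Whether a match goes with the order along the replicate numbers was not tested. Each sequence is the 250 bases before the annotated start, 5′ to 3′ on the gene's strand (RefSeq, GRCh38.p14), with the matching letters in capitals. The regions are chr12:104215529-104215778 and chr12:104286782-104287031 (plus strand) for the 2 TXNRD1 starts, chr1:93909431-93909680 (minus strand) for GCLM and chr9:110256508-110256757 (minus strand) for TXN.
TXNRD1, first start: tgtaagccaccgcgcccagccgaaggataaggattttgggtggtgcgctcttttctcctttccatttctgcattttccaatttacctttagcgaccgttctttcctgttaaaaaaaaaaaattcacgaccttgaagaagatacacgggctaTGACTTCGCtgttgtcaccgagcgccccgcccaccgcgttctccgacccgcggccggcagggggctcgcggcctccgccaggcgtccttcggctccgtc
TXNRD1, second start: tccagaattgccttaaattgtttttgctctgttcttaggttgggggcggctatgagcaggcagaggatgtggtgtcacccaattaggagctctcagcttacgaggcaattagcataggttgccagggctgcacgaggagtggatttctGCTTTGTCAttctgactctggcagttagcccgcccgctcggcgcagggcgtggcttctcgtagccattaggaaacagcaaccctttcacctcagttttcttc
GCLM: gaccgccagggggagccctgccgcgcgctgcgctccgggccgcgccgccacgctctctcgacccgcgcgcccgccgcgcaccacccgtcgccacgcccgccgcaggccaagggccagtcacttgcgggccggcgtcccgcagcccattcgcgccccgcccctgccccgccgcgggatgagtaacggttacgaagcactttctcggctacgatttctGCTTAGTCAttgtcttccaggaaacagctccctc
TXN: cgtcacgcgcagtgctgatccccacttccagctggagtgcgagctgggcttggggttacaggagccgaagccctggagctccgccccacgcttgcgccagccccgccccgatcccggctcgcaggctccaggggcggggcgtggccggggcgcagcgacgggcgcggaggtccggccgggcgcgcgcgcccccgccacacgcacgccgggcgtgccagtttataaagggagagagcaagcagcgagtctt
The first TXNRD1 window holds the core on the gene's own strand, 99 bases before the start. In the second TXNRD1 window and in that of GCLM the capitals read the core on the opposite strand, beginning 102 and 34 bases before the start. Searched on both strands, the core occurred in 10.9% of the 35116 windows of this length in the table, and in 3 of the 9 windows of the 7 genes. The AP-1 site TGANTCA, which the core can overlap, occurred in 6.57% of all windows and in 0 of these 9. TXN, SRXN1, NQO1, GCLC and NFE2L2 had no match in these windows, which says nothing of sites farther away.

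NQO1, the quinone reductase often used as a readout of NRF2, varied less than the thioredoxin genes. The gene (ENSG00000181019.13, chromosome 16, 69706996 to 69726668, minus strand) stood at 60.6, 55.2 and 44.4 CPM in PTX4-OE replicates 1, 2 and 3, against 63.2, 58.8 and 41.7 CPM in EV replicates 1, 2 and 3. Its log2 fold change of number 3 against 1 was -0.52 (SE 0.067), and number 2 against 1 gave a smaller value (-0.12, SE 0.067) than number 3 against 2 (-0.40, SE 0.068). NQO1 counts were fractional in all 6 libraries, and an opposite-strand lncRNA over 19.4% of its exons had 4.30 to 8.98 counts.

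HMOX1, haem oxygenase 1, which opens the haem ring, had the fewest counts of the 9 genes. The gene (ENSG00000100292.18, chromosome 22, 35380361 to 35394214, plus strand) had 112, 52 and 134 expected counts in PTX4-OE replicates 1, 2 and 3, against 108, 55 and 53 in EV replicates 1, 2 and 3. In normalised CPM this was 3.12, 1.67 and 3.43 in PTX4-OE and 3.42, 1.87 and 1.57 in EV. PTX4-OE replicate 3 was therefore high where EV replicate 3 was low, with log2 differences of number 3 minus 1 of 0.14 in PTX4-OE and -1.12 in EV. The log2 difference between PTX4-OE and EV was -0.13 and -0.17 at numbers 1 and 2 and 1.12 at number 3. The fitted log2 fold change of number 3 against 1 was -0.41 (SE 0.28) with all libraries, -1.10 without PTX4-OE replicate 3 and 0.14 without EV replicate 3, so its sign rested on single libraries.

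NFE2L2 mRNA, which encodes NRF2, varied least. The gene (ENSG00000116044.17, chromosome 2, 177218667 to 177392756, minus strand) stood at 77.5, 71.1 and 78.5 CPM in PTX4-OE replicates 1, 2 and 3, against 73.9, 73.7 and 73.0 CPM in EV replicates 1, 2 and 3. Its log2 fold change of number 3 against 1 was 0.00073 (SE 0.062) and its range over the 6 libraries was 0.14 on the log2 scale, against 1.51 for PRDX1. The annotated exons of NFE2L2 overlap those of HNRNPA3 on the opposite strand over 3509 bases (23.4%), and HNRNPA3 had 18587 to 25312 expected counts against 2165 to 3067 for NFE2L2. The sources used here do not say whether counting used strand, and NFE2L2 counts were fractional in all 6 libraries, so part of them is uncertain. HNRNPA3 itself had a log2 fold change of -0.36 for number 3 against 1.

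Between the constructs, the fitted log2 fold changes of PTX4-OE against EV ran from -0.11 for PRDX1 (SE 0.46) to 0.27 for HMOX1 (SE 0.39), with a median of 0.013 over the 9 genes and of 0.0077 over all 17625 tested genes. TXN was at 0.052 (SE 0.25), TXNRD1 at -0.030 (SE 0.25), SRXN1 at -0.035 (SE 0.19) and NQO1 at -0.031 (SE 0.19). GCLC was at 0.013 (SE 0.14), GCLM at 0.036 (SE 0.24) and NFE2L2 at 0.042 (SE 0.089). By the edgeR quasi-likelihood test 0 of the 9 genes were called at an adjusted p under 0.05, where 0.00567% of all genes (PTX4 alone) were called. At an unadjusted p under 0.05 the counts were 0 of the 9 and 131 of all 17625 genes. DESeq2 and limma on log2(TPM + 1), likewise fitted without replicate number, called 0 of the 9, where they called 3 and 2 genes in all. With replicate number as a block, 0 of the 9 were called, where 0.267% of all genes were called (0.0284% higher and 0.238% lower). In that blocked fit 0 of the 9 had an unadjusted p under 0.05, against 1550 of all 17625 genes. In each fit without a block the differences along the numbers count as spread between replicates, which widens the standard errors above. With the block PRDX1 was at -0.11 (SE 0.057) and HMOX1 at 0.28 (SE 0.24). Each of the other members had a blocked log2 fold change smaller in size than its standard error. Same-numbered PRDX1 values differed between PTX4-OE and EV by -0.019, -0.27 and -0.031 on the log2 scale at numbers 1, 2 and 3, and those of TXN by 0.15, -0.015 and -0.021. Leaving out a single library turned the sign for 7 of the 9 genes (PRDX1 from -0.47 to 0.19) and kept it for HMOX1 and NFE2L2.

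**Figure D2:**
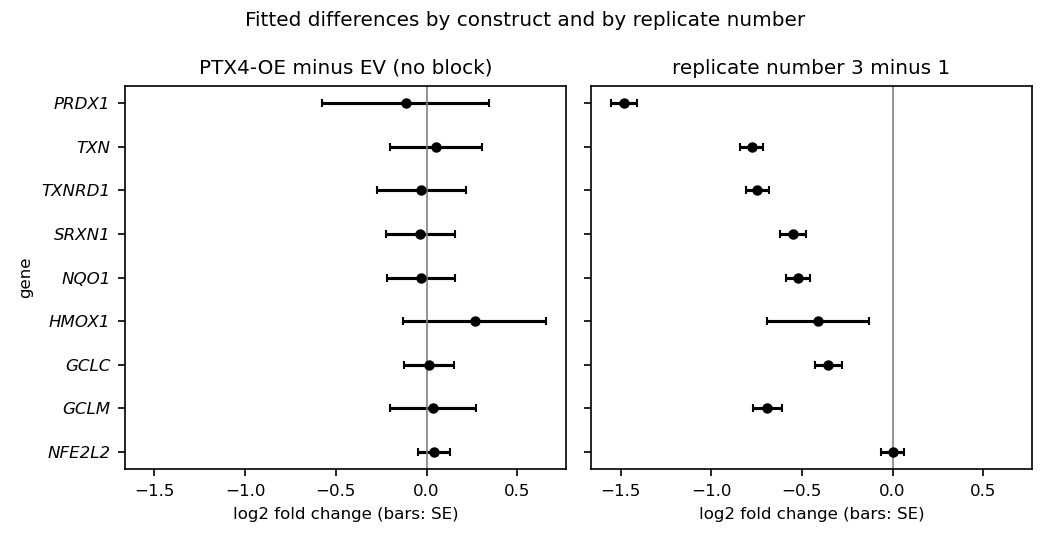
Log2 fold change (x axis) of PTX4-OE against EV without a block (left) and of replicate number 3 against 1 with construct in the fit (right) for the 9 genes, with bars for the standard error. On the left every bar crosses 0 and on the right PRDX1 stands at -1.48 and NFE2L2 at 0.00073. With the replicate block, which is not drawn, the bars of PRDX1 (-0.11, SE 0.057) and HMOX1 (0.28, SE 0.24) would not cross 0.

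Along the replicate numbers the 9 genes had a median log2 fold change of number 3 against 1 of -0.55, where all tested genes had 0.026. In the edgeR fit 7 of the 9 were called lower at number 3 and 0 higher, where 28.8% of all genes were called lower and 25.8% higher, so differences between these numbers ran through the transcriptome. The edgeR test of any difference among the 3 numbers called 51.6% of all genes, and number 3 against 1 called 54.6% in either direction. Because the 9 genes were chosen with this contrast known, nothing is read from their count. The total count and the mitochondrial share did not follow the order 1, 2, 3, and the mean monocyte marker sum was 855, 737 and 746 TPM for numbers 1, 2 and 3. Within that sum LYZ, lysozyme, did follow it, at 65.8, 24.6 and 19.3 TPM in PTX4-OE replicates 1, 2 and 3, against 50.5, 29.65 and 28.9 TPM in EV replicates 1, 2 and 3. CSF1R, CD68 and ITGB2 also had that order in both constructs, CD68 at 117 and 102 TPM in PTX4-OE and EV replicate 3, against 152 and 149 TPM in PTX4-OE and EV replicate 1. Other monocyte markers did not. CD14 was higher in replicate 3 than in replicate 1, at 1.63 against 1.43 TPM in PTX4-OE and 1.83 against 1.47 TPM in EV. CD33, SPI1 and FCGR1A were higher in replicate 3 than in replicate 1 in EV and not in PTX4-OE. These markers were chosen for naming after their values were seen, and their part in the result was not tested. The 13 mitochondrially encoded mRNAs had a median log2 fold change of 0.49 for number 3 against 1, with 7 called higher and 0 lower, and PTX4-OE replicate 1 had the lowest mitochondrial share. With mitochondrially encoded genes left out, 7 of the 9 were still called lower, with a median of -0.52. PTX4 in the PTX4-OE libraries was also highest at number 1, with 702, 475 and 444 TPM at numbers 1, 2 and 3.

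The other genes of the pathway were read from 7 lists of redox genes, in which 107 of 120 listed genes passed the filter on low counts. Between PTX4-OE and EV, edgeR without a block called 0 of the 107, with 2 at an unadjusted p under 0.05 (131 of all 17625 genes). DESeq2 without a block called 0 of the 107. Limma on log2(TPM + 1) without a block called 0 of the 102 that passed its own filter. In edgeR with replicate number as a block, 12 of the 107 had an unadjusted p under 0.05 (1550 of all 17625 genes), and 1 was called lower and 0 higher. That gene was GGT1, a gamma-glutamyl transferase that cleaves extracellular glutathione, at 14.8, 17.3 and 15.4 CPM in PTX4-OE replicates 1, 2 and 3, against 21.6, 22.1 and 19.6 CPM in EV replicates 1, 2 and 3. Every PTX4-OE library was below every EV library, with a log2 fold change of -0.42 (SE 0.072, edgeR adjusted p = 0.0244 with the block). GGT1 belongs to a family with near-identical copies and its counts were fractional in all 6 libraries, so the value is uncertain. Between replicate numbers 3 and 1, 64 of the 107 were called lower, 12 higher and 31 neither, with a median log2 fold change of -0.32. Over all 17625 tested genes 28.8% were called lower and 25.8% higher, with a median of 0.026. Among listed genes, the largest differences below are those of genes with a mean of at least 10 CPM.

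Of 21 other peroxiredoxin and thioredoxin system genes, 11 were called lower at number 3 (28.8% of all genes), 2 higher (25.8%) and 8 neither. Their median was -0.24, and 0 were called between constructs with or without the block. PRDX4, the peroxiredoxin of the endoplasmic reticulum, stood at 65.8, 50.9 and 29.6 CPM in PTX4-OE replicates 1, 2 and 3, against 59.9, 50.7 and 33.5 CPM in EV replicates 1, 2 and 3. Its log2 fold change of number 3 against 1 was -0.997 (SE 0.076), and that of GLRX5, a mitochondrial glutaredoxin of iron-sulfur cluster assembly, was -0.87 (SE 0.071). PRDX2, PRDX3, PRDX5 and PRDX6, named after their values were seen, were also called lower, at -0.60, -0.65, -0.24 and -0.50, where 28.8% of all genes were called lower. TXNIP, which binds and inhibits thioredoxin, was called higher (0.31, SE 0.069) and is also named after its value was seen. The largest differences between PTX4-OE and EV in the list were those of MSRB1 (-0.21, SE 0.19), a methionine sulfoxide reductase, and GLRX (-0.15, SE 0.13).

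Of 13 tested NRF2 regulators, 7 were called lower at number 3 (28.8% of all genes), 2 higher (25.8%) and 4 neither. Their median was -0.30, and 0 were called between constructs with or without the block. RBX1, the RING subunit of the CUL3 ligase, was at -0.78 (SE 0.069) and DPP3, a peptidase that binds KEAP1, at -0.65 (SE 0.076). KEAP1 (-0.38), CUL3 (-0.30) and the repressor BACH1 (0.30), named after their values were seen, were called lower, lower and higher. Between PTX4-OE and EV the largest differences were those of NFE2L3 (-0.13, SE 0.19), a relative of NRF2, and BTRC (0.12, SE 0.12), a subunit of another ligase that targets NRF2.

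Of 22 tested genes of glutathione synthesis and use, 15 were called lower at number 3 (28.8% of all genes), 2 higher (25.8%) and 5 neither. Their median was -0.28. GSTP1, an abundant glutathione transferase, stood at 248, 189 and 127 CPM in PTX4-OE replicates 1, 2 and 3, against 241, 189 and 128 CPM in EV replicates 1, 2 and 3, with a log2 fold change of number 3 against 1 of -0.94 (SE 0.058). GSTM2 went the other way, at 4.15, 9.85 and 15.4 CPM in PTX4-OE replicates 1, 2 and 3, against 6.77, 9.64 and 17.0 CPM in EV replicates 1, 2 and 3 (1.59, SE 0.14). GSTM2 has close relatives in its gene cluster and fractional counts in all 6 libraries, so that value is uncertain. SLC7A11, the cystine importer and an NRF2 target named after its value was seen, was called higher at 0.34. CHAC1, which degrades glutathione, had the next largest difference between PTX4-OE and EV after GGT1 (0.19, SE 0.098).

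Of 12 NADPH supply genes, 8 were called lower at number 3 (28.8% of all genes), 0 higher (25.8%) and 4 neither. Their median was -0.41, and 0 were called between constructs with or without the block. TALDO1, an enzyme of the pentose phosphate pathway, was at -0.80 (SE 0.063). Between PTX4-OE and EV the values of NADK, which makes NADP, and of PGD were -0.13 (SE 0.18) and -0.12 (SE 0.14). Of 20 other tested NRF2 targets, 10 were called lower at number 3 (28.8% of all genes), 4 higher (25.8%) and 6 neither. Their median was -0.20, again with 0 called between constructs. ABCC4, an efflux transporter, was at -0.62 (SE 0.085) and TRIM16, a ubiquitin ligase gene with near copies and fractional counts, at 0.68 (SE 0.10). SLC6A9, a glycine transporter, and CBR1, a carbonyl reductase, had the largest differences between PTX4-OE and EV (0.21, SE 0.093, and 0.090, SE 0.19).

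Of 10 tested haem and iron genes, 7 were called lower at number 3 (28.8% of all genes), 1 higher (25.8%) and 2 neither. Their median was -0.49, and 0 were called between constructs with or without the block. TFRC, the transferrin receptor, stood at 154, 86.6 and 49.5 CPM in PTX4-OE replicates 1, 2 and 3, against 144, 102 and 46.2 CPM in EV replicates 1, 2 and 3 (number 3 against 1, -1.64, SE 0.078). FTL, the ferritin light chain and an NRF2 target, was at -0.73 (SE 0.088). BLVRA, a biliverdin reductase, and SLC48A1, a haem transporter, were at -0.17 (SE 0.21) and -0.12 (SE 0.16) between PTX4-OE and EV. Of 9 tested superoxide and hydrogen peroxide enzymes, 6 were called lower at number 3 (28.8% of all genes), 1 higher (25.8%) and 2 neither. Their median was -0.56, and 0 were called between constructs with or without the block. SOD1 and SOD2, the cytosolic and mitochondrial superoxide dismutases, were at -1.11 (SE 0.059) and -0.75 (SE 0.060). NCF4, a cytosolic subunit of the phagocyte NADPH oxidase, was called higher at 0.40 (SE 0.068) and stood at -0.040 (SE 0.15) between PTX4-OE and EV, where CAT, catalase, stood at 0.051 (SE 0.11).

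**Figure D3:**
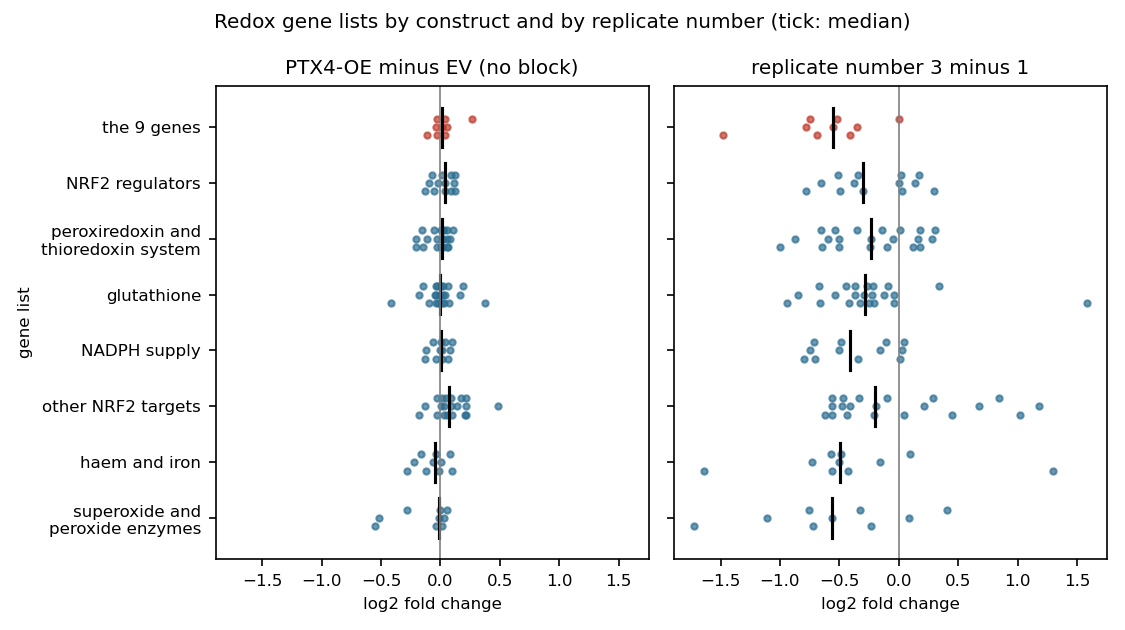
Log2 fold changes (x axis) of PTX4-OE against EV without a block (left) and of replicate number 3 against 1 (right) for every tested gene of the 9 (red) and of the 7 redox lists (blue), 1 point a gene, with a tick at each median. On the right the medians lie between -0.56 and -0.20, and on the left between -0.049 and 0.070.

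Of 9885 other genes with a mean of at least 10 CPM, 5 came closest to PRDX1 in their pattern over the 6 libraries, measured as the root mean square difference of log2 CPM deviations from each gene's mean. They were PRTN3, a serine protease of azurophil granules (0.067), MCM4, a subunit of the replicative helicase (0.10), HSP90AA1, a cytosolic chaperone (0.11), UNG, a uracil-DNA glycosylase (0.12), and CRYZ, a quinone reductase (0.12). PRTN3 stood at 1398, 1107 and 558 CPM in PTX4-OE replicates 1, 2 and 3, against 1436, 1297 and 567 CPM in EV replicates 1, 2 and 3. On the same measure, TXN (0.32) and TXNRD1 (0.33) were the closest of the other 8 genes to PRDX1, and HMOX1 (0.71) and NFE2L2 (0.64) the farthest.

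**Figure D4:**
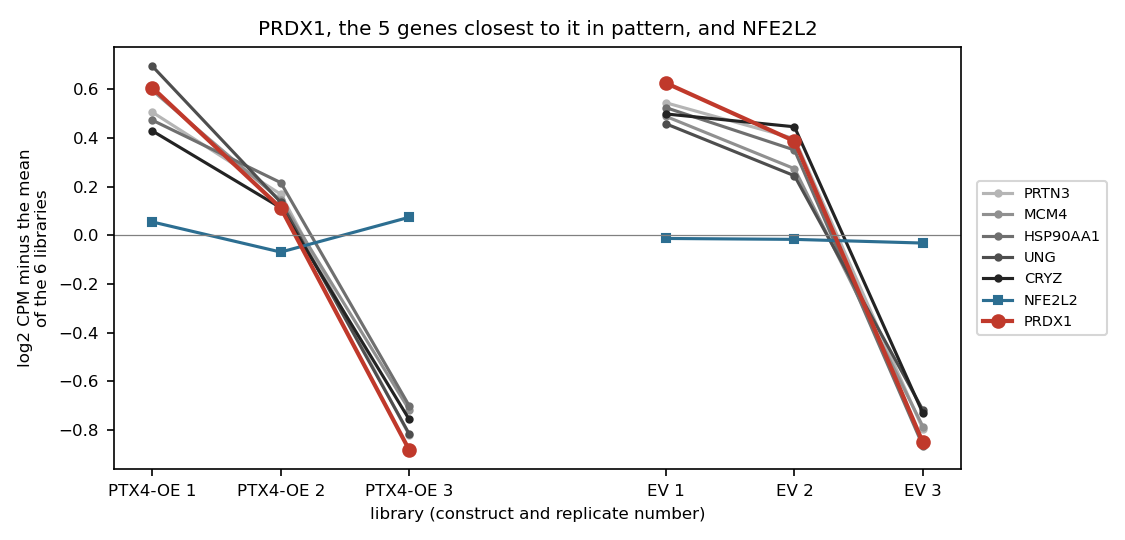
Log2 CPM minus the mean of the 6 libraries (y axis) for PRDX1 (red), NFE2L2 (blue) and the 5 genes closest to PRDX1 in pattern (grey), with the 3 PTX4-OE libraries left of the 3 EV libraries. PRDX1 and the grey genes are above 0 in replicates 1 and 2 and below 0 in replicate 3 of both constructs, while NFE2L2 stays within a range of 0.14.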

How the data were processed

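THP-1 libraries with 3 PTX4-OE and 3 EV replicates were compared. Per the labels' protocols, RNA was enriched with oligo(dT) beads. FastQC 0.11.5, STAR, featureCounts and GRCh38 are named in the submitters' processing notes. Their settings and the annotation release are not given in the sources used here. Expected counts were deposited without normalization, and 7.94% of them are not whole. TPM values, which the authors scaled to gene length and to a common total per library, were used for levels, and the FPKM table was not used. Gene coordinates came from GENCODE on GRCh38, and 38 pairs of X and Y copies were summed.

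Counts were rounded, kept by filterByExpr (17625 genes), scaled by TMM and tested with the quasi-likelihood F test of edgeR 4.0.16 in R 4.3.3, with Benjamini-Hochberg adjustment and a threshold of 0.05. The fit of PTX4-OE against EV had no block, and the fit of replicate numbers had construct as a term. Standard errors derive from variances moderated across genes. DESeq2 1.42.0, limma 3.58.1 on log2(TPM + 1) and log2(TPM + 0.1), RLE scaling, other filters and left-out libraries were alternatives. For PTX4-OE against EV these alternatives had no block. Tables were read with pandas 2.3.3.

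Deviations of same-numbered libraries from their construct's mean correlated at 0.574, 0.107 and 0.643 for numbers 1, 2 and 3, all over 0.1, that of number 2 barely, and for unlike numbers from -0.587 to 0.081. Deviations within a construct sum to 0, which by itself draws values of unlike numbers down where those of like numbers are positive. PTX4-OE replicate 1 with EV replicate 2 gave 0.081, close to the value of number 2. The numbers were taken to pair the libraries in the fit with the block. The main fit of PTX4-OE against EV left this pairing out. The 9 genes and the redox lists were chosen with earlier results of these data known. In each list the text names the 2 genes with the largest change between constructs and the 2 with the largest between numbers 3 and 1, at a mean of at least 10 CPM, plus genes called in these fits. The values of 1 gene that this rule names are not reported here. Of the genes called only between numbers, those named beyond the 2 were chosen after their values were seen. Labels call the replicates biological, and nothing says that they came from separate transductions, so p-values measure only the spread between these samples.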

Additional observations from a re-analysis of the deposited data

Results flagged for a closer look

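The log2 difference of replicate number 3 minus 1 had opposite signs in the 2 constructs for HMOX1, at 0.138 in PTX4-OE and -1.12 in EV. It also had opposite signs for NFE2L2, at 0.0192 in PTX4-OE and -0.0188 in EV. Each value compares 1 library with 1 library, and the difference between the constructs was not tested.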

How the results depend on the processing

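The count of genes called between PTX4-OE and EV was 1, and 47 with the replicate block (5 higher, 42 lower). In fits without the block it was 2 without a filter on low counts, 3 with DESeq2, 2 with limma on log2(TPM + 1), and 1 without any single library. Under the block 0 of the 9 genes were called, and GGT1 was the 1 call that it changed among the redox genes. Between replicate numbers 9088 genes were called, or 6506 to 9506 over the 12 alternatives, and 9620 between numbers 3 and 1, or 7240 to 9794. Of the 626 values of single genes under alternatives 623 moved by less than the spread between replicates, and 0 called values changed sign. That spread was taken within constructs, so it holds the differences along the numbers. For PTX4-OE against EV the PRDX1 value ran from -0.47 to 0.19 and stayed within it. None of these genes was called between constructs in the main fit, so no change of sign could count there. These counts therefore do not show that the values are stable. Many uncalled values changed sign. They include most of PTX4-OE against EV, such as PRDX1 (3 alternatives positive, 11 negative) and TFRC (7 and 7). For number 3 against 1 they include NFE2L2 (-0.0187 to 0.0732) and HMOX1 (-1.10 to 0.143). For the same contrast GCLC moved to -0.171 and NFE2L2 to 0.0732 on log2(TPM + 1), and HMOX1 to -1.10 without PTX4-OE replicate 3, where number 3 is EV replicate 3 alone and is assumed to vary like the other groups, and to 0.143 without EV replicate 3. The cause was not tested. The PRDX1 value ran from -1.52 to -1.40 over the alternatives. With 52 to 134 counts per library, HMOX1 is the least precisely counted of the 9 genes.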
